A study of Mus musculus with 6 samples.

Results

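The NMDA receptor subunit genes Grin1, Grin2a, Grin2b, Grin2c, Grin2d, Grin3a and Grin3b were followed in RNA-seq counts of the mouse hippocampus after chronic cerebral hypoperfusion. The 7 genes were matched by symbol among the 54752 genes counted, and all 7 were found. The right hippocampus of 6 male wild-type C57BL/6 mice (C57BL/6 J in the study's methods) was sequenced whole, 1 library per mouse. The labels give an age of 14 weeks for every mouse. The 3 BCAS mice had bilateral common carotid artery stenosis, in which a microcoil narrows each common carotid artery, with the tighter coil on the sampled right side. The 3 sham mice had the same operation without coils. Tissue was taken 3 weeks after surgery, so each group is a single time point in a single sex and strain.

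NMDA receptors are glutamate-gated cation channels of excitatory synapses that open only when glutamate and a co-agonist, glycine or D-serine, are bound while the membrane is depolarized. Each channel is a tetramer that needs GluN1, the product of Grin1. GluN1 binds the co-agonist, and the GluN2 subunits from Grin2a to Grin2d bind glutamate and set the channel's kinetics, magnesium block and partners inside the cell. GluN3 subunits, from Grin3a and Grin3b, bind glycine and lower calcium entry. In the adult hippocampus, GluN2A and GluN2B are the main GluN2 subunits of pyramidal neurons, GluN2D is found mostly in interneurons, and GluN2C, best known from cerebellar granule cells, is found in astrocytes among other cells.

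The 4 GluN2 genes are related but well separated in sequence, which bears on how well reads can be assigned to each. Over the aligned coding sequence, Grin2a and Grin2b were 62.3% identical and Grin2c and Grin2d were 61.9% identical, and no pair of members shared an identical run of more than 34 bases of transcript.

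The end of the coding sequence is shown because it encodes the PDZ ligand by which GluN2 subunits bind PSD-95 and its relatives. The last 30 coding bases follow, on the coding strand of build GRCm38 (mm10, GENCODE M21), with the last 4 codons before the stop in capitals.
Grin2a, chr16:9577827-9577856: aaaatgcctagtattGAATCTGATGTCtaa
Grin2b, chr6:135732098-135732127: aaactttctagtattGAGTCTGATGTCtga
Grin2c, chr11:115249571-115249600: cggatctccagcctgGAATCAGAAGTGtga
Grin2d, chr7:45832780-45832809: cacttctccagcctgGAGTCCGAGGTAtga
In this window Grin2a and Grin2b encode the same 4 last residues, and so do Grin2c and Grin2d. Members of the second pair moved in opposite directions on TMM-scaled values, as given below.

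The RefSeq promoter table (GRCm38.p6) held 4 of the 7 members, Grin1, Grin2c, Grin2d and Grin3b. Its Grin2d window lies inside the gene span that GENCODE gives and its Grin3b window overlaps the annotated start, so neither is described as upstream sequence. The 250 bases before the start of Grin1, the obligatory subunit, and of Grin2c, which rose on TMM-scaled values but fell when scaled to astrocyte markers, are shown, with every GC box, GGGCGG, in capitals.
Grin1, chr2:25319188-25319437, minus strand: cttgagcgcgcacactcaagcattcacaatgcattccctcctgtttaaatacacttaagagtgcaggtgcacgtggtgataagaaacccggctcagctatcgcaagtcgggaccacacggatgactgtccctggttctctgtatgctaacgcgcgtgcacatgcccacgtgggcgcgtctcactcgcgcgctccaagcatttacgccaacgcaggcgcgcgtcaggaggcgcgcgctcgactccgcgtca
Grin2c, chr11:115267244-115267493, minus strand: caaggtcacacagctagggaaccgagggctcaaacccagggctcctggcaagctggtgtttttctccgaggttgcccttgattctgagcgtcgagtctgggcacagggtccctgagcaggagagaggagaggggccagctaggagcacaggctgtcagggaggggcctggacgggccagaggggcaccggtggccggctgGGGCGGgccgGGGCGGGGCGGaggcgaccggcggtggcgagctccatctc
GGGCGG, searched on both strands, was found at 3 places in the Grin2c window, of which 2 overlap, and at none in the Grin1 window. The same letters occur in 32.74% of the 32851 promoter windows of this length. TGCGCA, the core of the NRF1 motif, was in neither window and in 6.43% of all. Grin1 had 27 CpG dinucleotides and Grin2c 15, where the median promoter had 6. These letters describe the windows and were not tested against the expression values.

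Levels are given as CPM (counts per 1000000 counts of the library, TMM-scaled) within a gene and as RPKM (CPM per kilobase of merged exons) between genes. In sham mice the order of the mean levels was Grin1 at 26.5 RPKM (SD 1.03, n = 3), Grin2b at 16.7 (SD 1.95), Grin2a at 16.3 (SD 1.78), Grin2c at 11.6 (SD 0.308), Grin3a at 4.51 (SD 0.269) and Grin2d at 3.03 RPKM (SD 0.270). Grin2a and Grin2b overlapped between sham mice and cannot be ranked. With the length of 1 transcript per gene in place of merged exons, Grin2a came out at 19.9 and Grin2b at 17.2, so this neighbouring order depends on the length used. In BCAS mice the order was Grin1 at 17.2 RPKM (SD 2.51), Grin2c at 14.8 (SD 1.42), Grin2b at 9.79 (SD 1.83), Grin2a at 7.21 (SD 1.66), Grin3a at 3.65 (SD 0.580) and Grin2d at 2.41 RPKM (SD 0.115). Grin2c thus stood below Grin2a and Grin2b in sham mice and above them in BCAS mice. The BCAS ranges of Grin1 and Grin2c overlapped, as did those of Grin2a and Grin2b. The overlap of Grin1 and Grin2c depends on the length used. With the length of 1 transcript, BCAS means per kilobase were 39.1 (SD 5.70) for Grin1 and 15.2 (SD 1.46) for Grin2c. Grin3b was near the detection limit, with 3, 6 and 4 counts in sham mice 1 to 3 and 19, 4 and 6 counts in BCAS mice 1 to 3. The limit of 3 counts equals 0.0874 to 0.0994 CPM in these libraries and covers counting error only. Grin3b did not pass the filter on low counts, and no change is given for it.

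**Figure D1:**
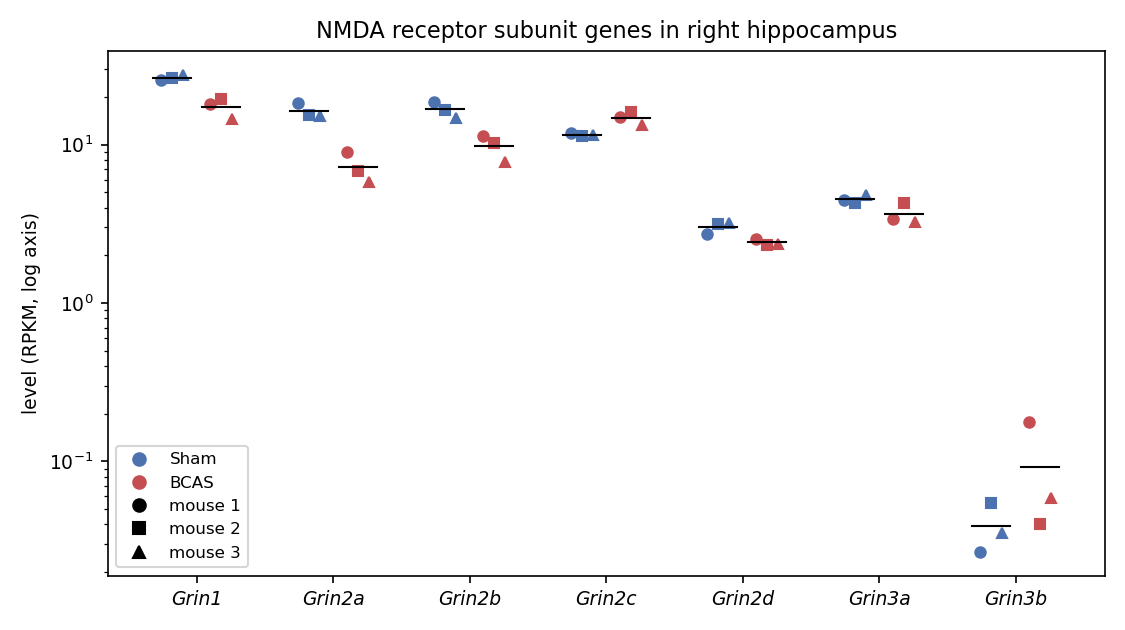
Level of each NMDA receptor subunit gene in RPKM on a log axis, with 1 point per mouse (symbol for the mouse number, blue for sham and red for BCAS) and a bar at the group mean. All 3 BCAS points lie below all 3 sham points for Grin1, Grin2a, Grin2b and Grin2d, and above them for Grin2c, on TMM-scaled values. The share of all tested genes whose groups separate in this way was not counted.

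With TMM scaling, 4 of the 6 tested members were lower in BCAS mice (Grin1, Grin2a, Grin2b and Grin2d) and 1 was higher (Grin2c), directions that flip for Grin1, Grin2b and Grin2d when libraries are scaled to CA1 pyramidal markers, for Grin2d also with pan-neuronal or interneuron markers, and for Grin2c when they are scaled to astrocyte markers, as given further on. Among all 18617 genes tested with edgeR, 13.2% were lower and 18.0% were higher at an adjusted P under 0.05. With the further threshold of an absolute log2 fold change above 1, which the study used for differentially expressed genes (DEGs), 0.999% of all genes were down-regulated and 8.47% were up-regulated, and Grin2a was the member that passed. The median log2 fold change of the 6 tested members was −0.47, against 0.018 for all tested genes. In bulk tissue, fewer cells of a type and less RNA per cell cannot be told apart. The libraries held 29652456 to 35607098 counts, and their TMM factors ran from 0.964 to 0.984 for the sham group and from 1.01 to 1.05 for the BCAS group.

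Grin2a encodes GluN2A, the subunit of fast, mature synaptic receptors. Grin2a (chromosome 16, bases 9567898 to 9995560, minus strand) stood at 328, 277 and 270 CPM in sham mice 1 to 3 and at 162, 122 and 104 CPM in BCAS mice 1 to 3. Every BCAS mouse was below every sham mouse, and the BCAS mean was 44.3% of the sham mean. The log2 fold change was −1.17 (SE 0.16, n = 3 per group, edgeR adjusted P = 7.89e-04). Of all tested genes, 0.908% had a more negative log2 fold change. It stayed lower, with an adjusted P of at most 0.00704, when any single mouse was left out.

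Grin2b encodes GluN2B, which gives slower currents and carries the main docking site for the kinase CaMKII. Grin2b (chromosome 6, bases 135713233 to 136173511, minus strand) stood at 464, 413 and 367 CPM in sham mice and at 281, 256 and 193 CPM in BCAS mice. The groups did not overlap, and BCAS mouse 3 was the lowest, as it was for Grin1 and Grin2a. The log2 fold change was −0.77 (SE 0.15, n = 3 per group, edgeR adjusted P = 0.00464), which left 58.7% of the sham mean.

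Grin1 encodes GluN1, without which no NMDA receptor reaches the membrane. Grin1 (chromosome 2, bases 25291181 to 25319187, minus strand) stood at 249, 255 and 268 CPM in sham mice and at 175, 187 and 140 CPM in BCAS mice. The groups did not overlap, and the BCAS mean was 65% of the sham mean. The log2 fold change was −0.62 (SE 0.11, n = 3 per group, edgeR adjusted P = 0.00325). Strand was not used in counting, and 13.5% of the exon bases of Grin1 are shared with the antisense gene Grin1os, so reads there cannot be assigned to either. Grin1os itself averaged 5.56 CPM in sham mice.

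Grin2c encodes GluN2C, a subunit with weak magnesium block. Grin2c (chromosome 11, bases 115249169 to 115267243, minus strand) stood at 59.9, 56.8 and 58.2 CPM in sham mice and at 75.2, 81.2 and 66.9 CPM in BCAS mice. It was the only member above its sham range in every BCAS mouse on TMM-scaled values, at 127.7% of the sham mean. The log2 fold change was 0.35 (SE 0.08, n = 3 per group, edgeR adjusted P = 0.0133). Of all tested genes, 72.8% had a smaller or more negative log2 fold change. It missed the threshold without sham mouse 2 (adjusted P = 0.0610) and without sham mouse 3 (adjusted P = 0.0520), and the direction held.

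Grin2d encodes GluN2D, whose receptors deactivate very slowly. Grin2d (chromosome 7, bases 45831883 to 45878378, minus strand) stood at 18.1, 21.0 and 21.3 CPM in sham mice and at 16.9, 15.6 and 15.7 CPM in BCAS mice. The groups were separated by the narrow gap between sham mouse 1 and BCAS mouse 1. The log2 fold change was −0.33 (SE 0.11, n = 3 per group, edgeR adjusted P = 0.0498), just past the threshold. Leaving out a single mouse gave adjusted P values of 0.0449 to 0.152, and the call was kept only without sham mouse 1. Grin2d also missed the threshold when scaled by library totals (edgeR adjusted P = 0.113) and with no filter beyond 1 count (0.0801). With the replicate number as a block the adjusted P was 0.117. The antisense gene Gm45441 shares 9.66% of the exon bases of Grin2d.

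Grin3a encodes GluN3A, a subunit more prominent in early postnatal life. Grin3a (chromosome 4, bases 49661611 to 49845744, minus strand) stood at 54.7, 52.4 and 58.9 CPM in sham mice and at 41.8, 52.9 and 39.6 CPM in BCAS mice. BCAS mouse 2 lay within the sham range and the others lay below it. The log2 fold change of −0.31 (SE 0.11, n = 3 per group) did not pass, with an edgeR adjusted P of 0.0720. Without BCAS mouse 2 it passed, at −0.45 (adjusted P = 0.00463). Grin3b (chromosome 10, bases 79970715 to 79977190, plus strand) shares 32.1% of its exon bases with Tmem259 on the other strand, so even its few reads are uncertain.

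**Figure D2:**
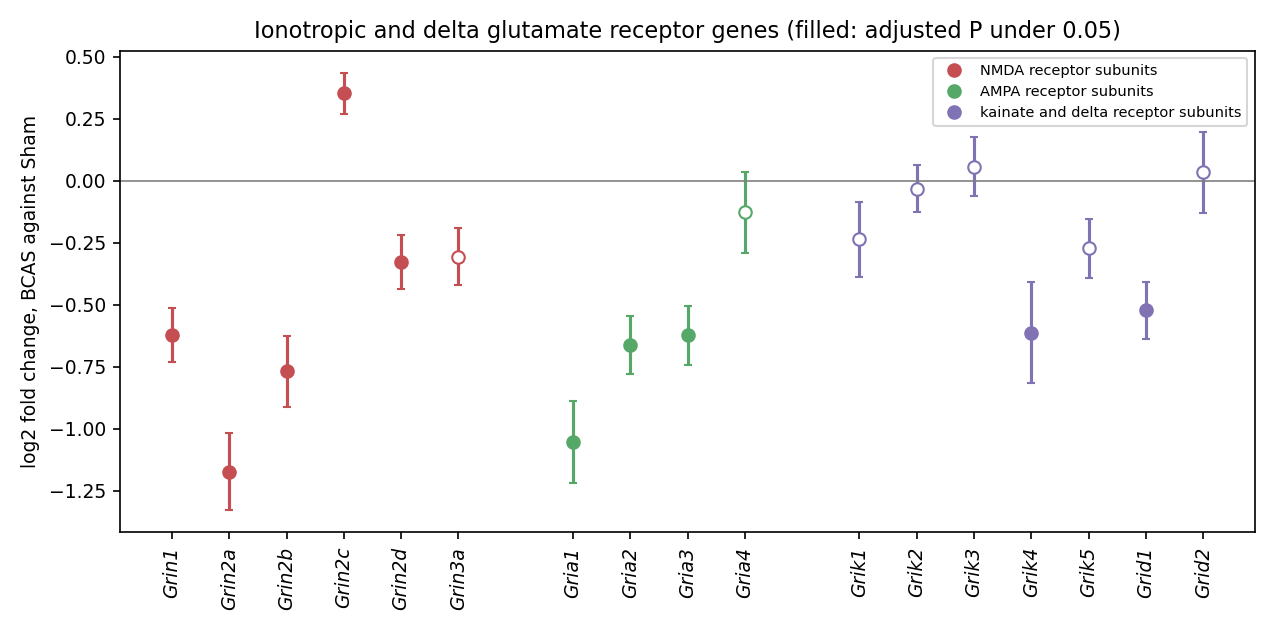
Log2 fold change of BCAS against sham mice (TMM scaling) for ionotropic and delta glutamate receptor genes, with bars of 1 SE, filled where the edgeR adjusted P is under 0.05. Grin2a (−1.17) and Gria1 (−1.06) lie lowest and Grin2c (0.35) is the filled point above 0, with signs that turn for Grin2d and Grin3a when scaled to pan-neuronal, interneuron or CA1 pyramidal markers, for Grin1 and Grin2b when scaled to CA1 pyramidal markers, and for Grin2c when scaled to astrocyte markers.

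The make-up of the GluN2 pool was compared as shares and ratios within each library, which need no scaling between libraries. Summed over Grin2a to Grin2d, the TMM-scaled level was 51.6, 46.5 and 44.6 RPKM in sham mice and 37.8, 35.6 and 29.2 RPKM in BCAS mice. Grin2a held 35.5%, 33.2% and 33.8% of this sum in sham mice and 23.9%, 19.1% and 19.9% in BCAS mice. Grin2b held 36.2%, 35.8% and 33.1% in sham mice and 29.9%, 29.0% and 26.6% in BCAS mice. The share of both genes was thus lower in every BCAS mouse than in any sham mouse. Grin2c held 23.1%, 24.2% and 25.9% in sham mice and 39.5%, 45.3% and 45.5% in BCAS mice, and became the gene with the largest share in all 3 of them. For Grin2d the sham range of 5.26% to 7.18% overlapped the BCAS range of 6.58% to 8.05%. The mean shares moved by −13.2 percentage points for Grin2a, by −6.54 for Grin2b, by 19.0 for Grin2c and by 0.71 for Grin2d. The last moved by 0.13 without sham mouse 1, by 0.24 without BCAS mouse 3 and by 1.09 without sham mouse 3. By an exact two-sided permutation test, P was 0.1 for Grin2a, Grin2b and Grin2c, the smallest that 3 against 3 allows, and 0.6 for Grin2d. Adjusted over the 4 shares, these were 0.133 and 0.6. The shares depend on gene length: from counts not divided by length, Grin2c held a mean of 7.47% in sham mice and 16.3% in BCAS mice, and the share of Grin2b moved by only −0.37 points.

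**Figure D3:**
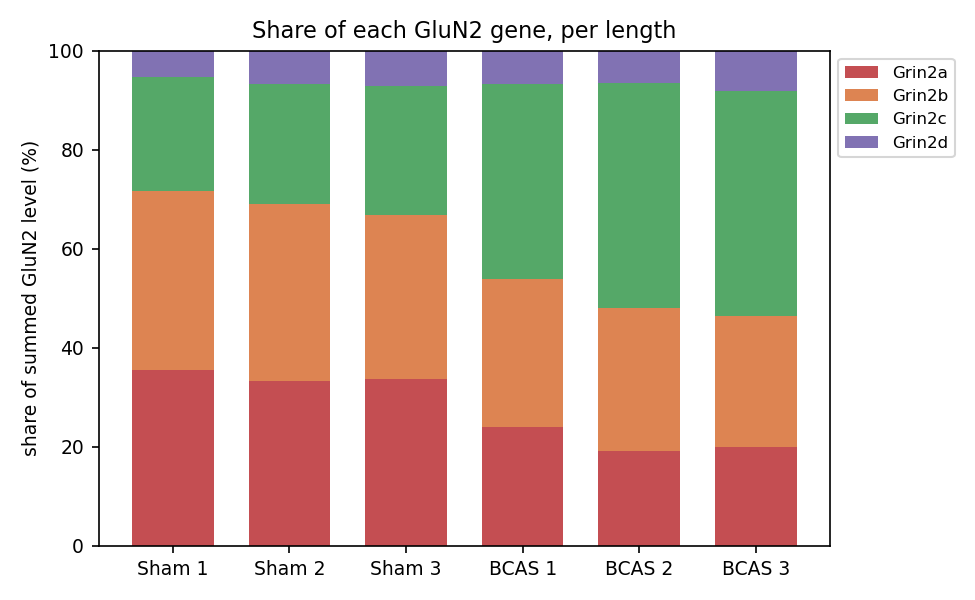
Share of Grin2a, Grin2b, Grin2c and Grin2d in the summed GluN2 level of each library, in percent, from counts per kilobase of merged exons, with 1 bar per mouse. The Grin2c part lies between 23.1% and 25.9% in sham mice and between 39.5% and 45.5% in BCAS mice.

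Ratios between the 4 genes show how far the subunits parted. The log2 ratio of Grin2a to Grin2b per kilobase was −0.027, −0.11 and 0.027 in sham mice and −0.32, −0.60 and −0.42 in BCAS mice. On the linear scale sham mice ranged from 0.929 to 1.02 and BCAS mice from 0.659 to 0.800, a shift of −0.41 on the log2 scale. The ratio of Grin2a to Grin2c went furthest, from a log2 mean of 0.49 (SD 0.12) to −1.05 (SD 0.29), a difference of −1.54. Grin2b to Grin2c moved by −1.13, Grin2a to Grin2d by −0.87, Grin2b to Grin2d by −0.46 and Grin2c to Grin2d by 0.67. Without sham mouse 1, the shift of Grin2b to Grin2d was −0.30. None of these 6 ratios overlapped between groups, and each had an exact two-sided permutation P of 0.1, the smallest possible with 3 mice per group, or 0.117 adjusted over the 7 ratios computed. The seventh, summed GluN2 to Grin1, had log2 values of 1.01, 0.83 and 0.69 in sham mice and 1.07, 0.88 and 1.02 in BCAS mice. These overlapped, with a difference of 0.15 against a pooled SD of 0.13 (exact permutation P = 0.2). The difference was 0.073 without sham mouse 3 and 0.23 without sham mouse 1, and it was −0.14 with counts not divided by length. The level of this seventh ratio also depends on the length used. With the length of 1 transcript per gene, sham means per kilobase were 60.2 for Grin1 and 19.9, 17.2, 11.9 and 3.71 for Grin2a to Grin2d. BCAS means were 39.1 and 8.84, 10.1, 15.2 and 2.96. In both groups the GluN2 means then sum to less than Grin1.

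Markers of cell types moved with these results. Their counts of calls stand beside 13.2% lower and 18.0% higher among all tested genes. Of the 10 pan-neuronal markers, 8 were lower and they summed to 7482 to 8113 CPM per sham library but 4314 to 6116 CPM per BCAS library. Rbfox3, which encodes NeuN, had a log2 fold change of −0.61 (adjusted P = 0.00385). Of the 8 CA1 pyramidal markers, 5 were lower (795.5 to 1038 CPM against 514 to 709 CPM). The lowest adjusted P values among them belonged to Pou3f1 (log2 fold change −1.24) and Spink8 (−2.15). Lower calls also held for 5 of 7 CA3 markers, 4 of 8 dentate granule markers and 7 of 9 interneuron markers, the last summing to 1247 to 1422 CPM per sham library but 741 to 919 CPM per BCAS library. Astrocyte and microglia lists went the other way. Of the 9 astrocyte markers, 8 were higher (4473 to 4761 CPM against 9503 to 10030 CPM), with Gfap, the main intermediate filament of reactive astrocytes, at a log2 fold change of 3.29 (adjusted P = 7.25e-06). All 7 microglia markers in the tables were higher (224 to 232 CPM against 1421 to 2271 CPM), and so were 4 of 5 endothelial markers. Of the 5 oligodendrocyte markers, log2 fold changes ran from −0.036 to 0.28, with edgeR adjusted P values of 0.28 or more, and of the 4 oligodendrocyte precursor markers 1 was higher, Cspg4 (0.73, adjusted P = 0.00269). Lists of neighbouring tissue were mixed. Of the 4 tested thalamus markers, 2 were higher, Lef1 (1.03, adjusted P = 0.00247) and Prkcd (0.91, adjusted P = 0.0265), while Rora (0.26) and Calb2 (−0.15) did not pass, and the list summed to 107 to 122 CPM per sham library but 134 to 187 CPM per BCAS library. Of the 4 tested cerebellar granule markers, 2 were higher, Pax6 (0.60, adjusted P = 0.00389) and Zic2 (0.65, adjusted P = 0.0103), while Zic1 (0.57) and Cbln3 (−0.66) did not pass, and the list summed to 51.1 to 62.1 CPM against 70.3 to 110 CPM. Gabra6, which defines those cells, had a mean of 0.0777 CPM in sham mice and 0 in BCAS mice. No listed marker was at 0 in every library. Choroid plexus markers differed widely between mice of a group, from 69.8 to 4075 CPM summed among the sham libraries and from 40.3 to 5913 CPM among the BCAS libraries. The part of these cell types in the subunit values was not tested.

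To set the members beside these markers, libraries were scaled to the geometric mean of a marker list in place of TMM. Scaled to pan-neuronal markers, Grin2a was still lower at −0.60 (adjusted P = 0.00910), whereas Grin1 at −0.053 and Grin2b at −0.21 did not pass, Grin2d and Grin3a both stood at 0.26 without passing, and Grin2c was higher at 0.93. Scaling to interneuron markers, chosen after seeing the data, gave nearly the same values, with Grin2a at −0.58 (adjusted P = 0.0216). Scaled to CA1 pyramidal markers, Grin2a at −0.31 (adjusted P = 0.108), Grin1 at 0.24 and Grin2b at 0.082 did not pass, and Grin2c (1.21), Grin2d (0.54) and Grin3a (0.55) were higher. Scaled to astrocyte markers, also chosen after seeing the data, all 6 tested members were lower, with Grin2c at −0.66 (adjusted P = 1.42e-04) and Grin2a at −2.18. These scalings compare a member with the mean of a list: single astrocyte markers ran from 0.26 (Aldoc, adjusted P = 0.0730) to 3.29 (Gfap) on the TMM scale, and Aldoc stood below Grin2c. These scalings set the median log2 fold change of all genes to 0.60, 0.61, 0.89 and −0.99, in the order given. Of all tested genes, 0.650% were lower and 58.6% higher when scaled to pan-neuronal markers, 0.526% and 60.2% with interneuron markers, 0.161% and 78.9% with CA1 pyramidal markers, and 73.7% and 5.01% with astrocyte markers. A scaling moves all genes by about the same amount, so counts of calls under it follow that shift, and values relative to the median of all genes (−1.19 to −1.21 for Grin2a and 0.32 to 0.34 for Grin2c) stay alike by construction.

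**Figure D4:**
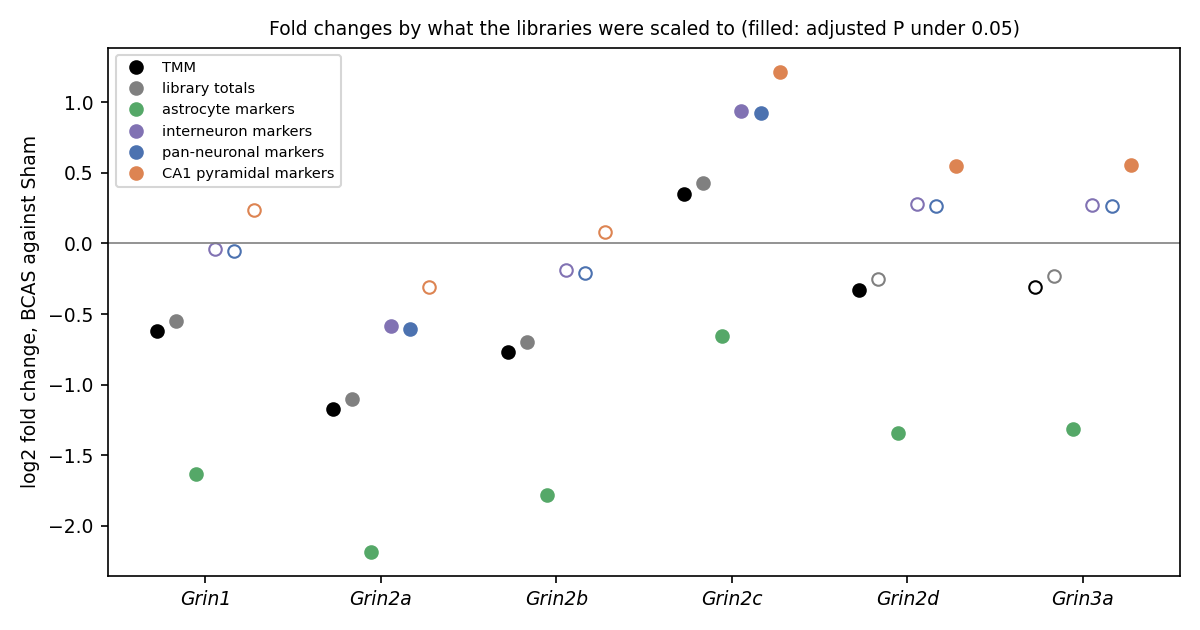
Log2 fold change of the 6 tested members by what the libraries were scaled to, 1 colour per scaling, filled where the edgeR adjusted P is under 0.05. Grin2a is below 0 under all 6 scalings and Grin2c above 0 under all but the astrocyte markers, while Grin1, Grin2b, Grin2d and Grin3a change sign between TMM and the CA1 pyramidal markers.

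The genes whose profile over the 6 libraries was nearest to each GluN2 gene were found among 12409 tested genes with a mean of at least 5 CPM, by the root mean square difference of log2 CPM centred on the sham mean. Nearest to Grin2a were Epha7, an ephrin receptor (0.0906), Nr3c2, the mineralocorticoid receptor (0.0958), and Gria1, an AMPA receptor subunit (0.0981). Near to Grin2b were Arhgef28 (0.0326) and Pde10a, a cyclic nucleotide phosphodiesterase (0.0548). Nearest to Grin2c were Sox11 (0.0378), Cxadr (0.0451) and Fam110a (0.0517), and nearest to Grin2d were Bop1 (0.0225), Suclg1 (0.0349) and Mrpl12 (0.0386). Group difference and noise both enter this likeness, and it is given as a description.

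Other glutamate receptors were compared with the same test, against the 13.2% lower and 18.0% higher among all tested genes. AMPA receptors carry the fast synaptic current that depolarizes the membrane for NMDA receptors to open. Of the 4 AMPA receptor genes, 3 were lower and the median was −0.64. Scaling to pan-neuronal markers gave 1 lower and 1 higher, against 0.650% and 58.6% of all tested genes. Scaling to CA1 pyramidal markers gave 0 lower (edgeR, also 0 unadjusted) and 1 higher, against 0.161% and 78.9% of all tested genes. Gria1 fell from 914 (SD 60.5) to 440 CPM (SD 107), a log2 fold change of −1.06 (SE 0.17, adjusted P = 0.00191), and Gria2, which makes the channel impermeable to calcium, changed by −0.66 (SE 0.12, adjusted P = 0.00358). Gria4 at −0.13 did not pass. Of the 7 kainate and delta receptor genes, 2 were lower and the median was −0.23, with 1 lower when any mouse but BCAS mouse 1 was left out. The calls were Grid1 (−0.52, adjusted P = 0.00978) and Grik4 (−0.61, adjusted P = 0.0488), which is also on the CA3 marker list. Scaled to pan-neuronal markers, 0 of these 7 genes were lower and 4 higher, against 58.6% of all genes higher. Scaled to CA1 pyramidal markers, 0 were lower and 5 higher, against 78.9% of all genes higher (edgeR, 0 lower unadjusted in both scalings). Of the 7 tested metabotropic receptor genes, 4 were lower and the median was −0.28. With these scalings 0 were lower (edgeR, 0 unadjusted) and 1 and then 5 were higher, against the same 58.6% and 78.9% of all genes. The lowest P value belonged to Grm5 (−0.57, adjusted P = 0.00259), whose receptor couples to phospholipase C. Grm6, the receptor of retinal bipolar cells, had no library above 3 counts.

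Genes that hold the receptor at the synapse were mostly lower on TMM-scaled values. Of 16 tested genes for PSD-95 family members and other scaffolds, 13 were lower, against 13.2% of all genes, with a median of −0.50. The count fell to 7 without any 1 sham mouse. Scaled to pan-neuronal markers, 0 were lower and 3 higher (edgeR, 1 and 3 at an unadjusted P under 0.05), against 58.6% of all tested genes higher. Scaled to CA1 pyramidal markers, 0 were lower and 7 higher (0 and 8 unadjusted), against 78.9% of all tested genes higher. Dlg3, which encodes SAP102, fell from 217 (SD 9.06) to 148 CPM (SD 14.9), or by 0.55 on the log2 scale (SE 0.09, adjusted P = 0.00238). Homer1, which links metabotropic receptors to Shank proteins, fell by 0.82 (SE 0.14, adjusted P = 0.00281). Dlg4, the gene of PSD-95 itself, had a log2 fold change of −0.56 (adjusted P = 0.0102) and was chosen here after its value was seen. Dlg1, the gene of SAP97, had 0.12 and did not pass. Of 14 tested trafficking and auxiliary genes, 3 were lower and the median was −0.18, against 13.2% of all genes. With the same scalings 0 were lower (edgeR, 0 unadjusted) and 7 and then 11 were higher, against 58.6% and 78.9% of all genes. Among them, Nsf, an ATPase of membrane fusion, fell by 0.65 (adjusted P = 0.00631), and Nsmf, the gene of the synapse-to-nucleus messenger Jacob, fell by 0.55 (adjusted P = 0.0120).

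Kinases such as CaMKII and phosphatases such as calcineurin act on the receptor's cytoplasmic tails. Of 23 tested kinase and phosphatase genes, 15 were lower, against 13.2% of all genes, with a median of −0.39. Scaled to pan-neuronal markers, 2 were lower and 8 higher, against 0.650% and 58.6% of all tested genes. Scaled to CA1 pyramidal markers, 0 were lower (edgeR, also 0 unadjusted) and 14 higher, against 0.161% and 78.9% of all tested genes. Ppp3r1 and Ppp3ca, the regulatory and a catalytic subunit of calcineurin, fell by 0.87 each (adjusted P = 0.00226 and 0.00339). Of 16 calcium effectors, 8 were lower and 1 was higher, against 13.2% and 18.0% of all genes, with a median of −0.44. The lower count ranged from 5 (without sham mouse 2) to 11 (without BCAS mouse 2). With those 2 scalings 1 was lower and 4 higher, then 0 lower (edgeR, also 0 unadjusted) and 8 higher, against the same shares of all genes. Itpka, an inositol trisphosphate kinase of dendritic spines, fell from 292 (SD 29.2) to 142 CPM (SD 22.4), a log2 fold change of −1.04 (SE 0.13, adjusted P = 4.44e-04), and Rasgrf1, a calcium-activated Ras exchange factor, fell by 0.78 (adjusted P = 4.53e-04). The gene that rose was Capn2, a calcium-activated protease, at 0.53 (SE 0.06, adjusted P = 4.82e-04).

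**Figure D5:**
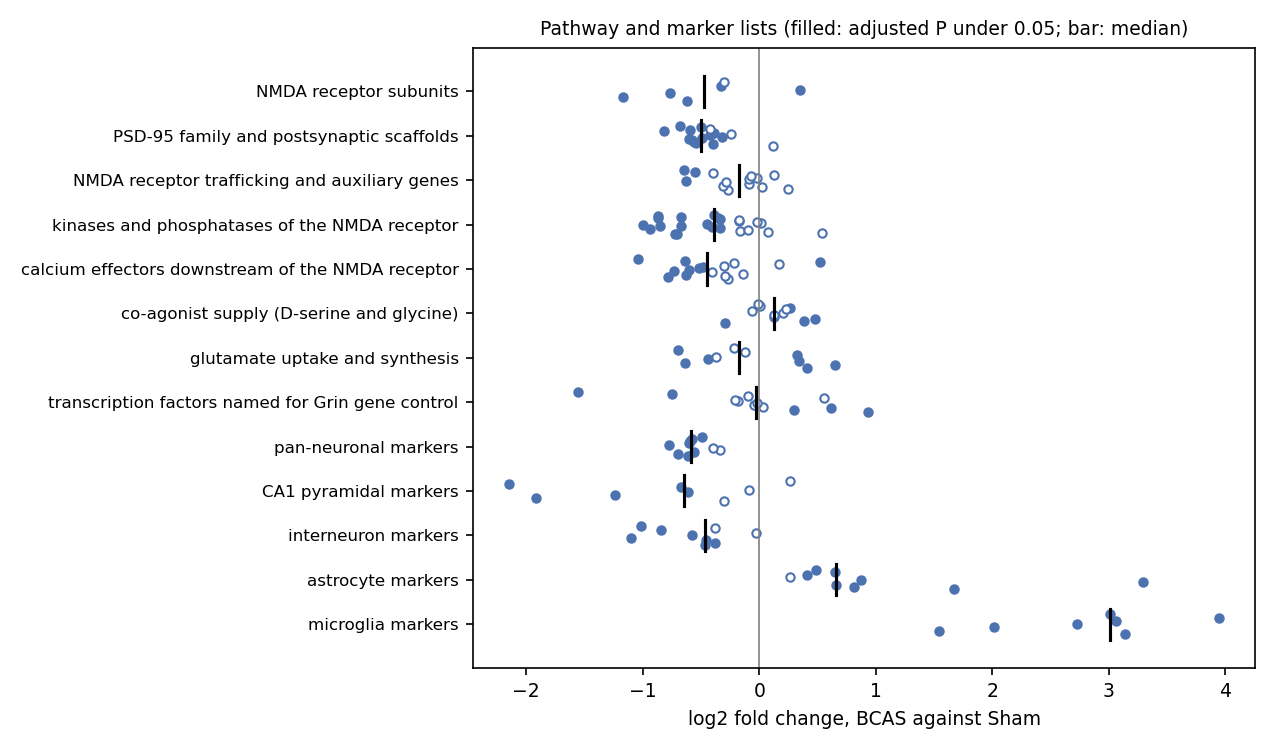
Log2 fold change of BCAS against sham mice (TMM scaling) for each tested gene of the pathway and marker lists, 1 point per gene, filled where the edgeR adjusted P is under 0.05, with a bar at the list's median. Scaffold, kinase and calcium effector lists lie mostly below 0 (medians −0.50, −0.39 and −0.44). The pan-neuronal markers also lie below 0 (−0.59), and the astrocyte (0.66) and microglia (3.01) markers lie above it. Scaled to pan-neuronal or CA1 pyramidal markers, these 3 pathway lists have more genes called higher than lower. Of all tested genes, 58.6% and 78.9% are called higher under these scalings.

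Supply of the agonists gave a mixed picture on TMM-scaled values. Of 11 tested genes for D-serine and glycine, 1 was lower and 3 were higher, with a median of 0.13, near the 13.2% and 18.0% among all tested genes. With the shift of all genes under marker scaling, 0 were lower and 9 higher for pan-neuronal markers (58.6% of all genes higher), 0 and 11 for CA1 pyramidal markers (78.9% higher), and 11 and 0 for astrocyte markers (73.7% lower; edgeR, each 0 also 0 unadjusted). The gene that fell on the TMM scale was Srr, serine racemase, which makes D-serine (−0.29, SE 0.10, adjusted P = 0.0473), and it passed in only 1 of the 6 fits that left out a mouse (without BCAS mouse 2). Psat1 (0.48, adjusted P = 0.00339) and Phgdh (0.39, adjusted P = 0.00674), which make the L-serine that racemase uses, rose. Of 10 genes of glutamate uptake and synthesis, 3 were lower and 4 were higher, and in the same order the scalings gave 0 and 4, 0 and 7, and 10 and 0 (edgeR, each 0 also 0 unadjusted). Without sham mouse 1, 0 were lower and 1 was higher, without sham mouse 2, 2 were lower and 1 was higher, without sham mouse 3, 0 were lower and 2 higher, and without BCAS mouse 1, 3 were lower and 2 higher (edgeR, with 4 lower and 4 higher at an unadjusted P in the full fit). Slc1a3, the astrocytic transporter GLAST, rose from 581 (SD 11.8) to 911 CPM (SD 6.83), or by 0.65 (SE 0.09, adjusted P = 8.62e-04), and Glud1, glutamate dehydrogenase, rose by 0.32 (adjusted P = 0.0123). Slc17a7, the vesicular transporter VGLUT1, fell by 0.69 (adjusted P = 0.0249). Slc1a2 and Slc1a3 are also on the astrocyte list.

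Of 12 transcription factors named for control of Grin genes, 2 were lower and 3 were higher, near the shares of 13.2% and 18.0% among all tested genes, and 1 was higher without sham mouse 1. Under the same shifts of all genes, 1 was lower and 9 higher for pan-neuronal markers, 1 and 10 for CA1 pyramidal markers, and 10 and 0 for astrocyte markers (edgeR, 0 higher also unadjusted), where 58.6% and 78.9% of all genes were higher and 73.7% lower. Neurod6 (−1.56, adjusted P = 0.00137) and Neurod2 (−0.75, adjusted P = 0.00512), factors of excitatory forebrain neurons, fell. Sp1, which binds GC boxes, rose from 31.3 (SD 3.23) to 48.0 CPM (SD 6.81), or by 0.62 (adjusted P = 0.00587). Rest, the repressor of neuronal genes in other cells, rose from 7.24 (SD 2.10) to 13.8 CPM (SD 2.43), or by 0.93 (adjusted P = 0.0126). A relation between these factors and the Grin genes across mice was not tested.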

How the data were processed

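The authors trimmed paired reads with Trim Galore, aligned them to mm10 with HISAT2 and deposited raw counts per gene from featureCounts, with the merged exon length of each gene. The file headers name featureCounts 2.0.3 with GENCODE vM20, where the processing notes give 1.6.3. The header's command counted each mate on its own, made no use of strand and skipped multi-mapping reads. Totals were 29652456 to 35607098 counts per library, and limits of detection cover counting error only. Genes kept by filterByExpr (18617) were TMM-normalized and tested with edgeR 4.0.16 (quasi-likelihood, no replicate block, Benjamini-Hochberg over all tested genes) in R 4.3.3. The SE given is the absolute log2 fold change divided by the square root of the F statistic of this test. Log2 CPM with a prior count of 2 served only the nearest profiles and the residual correlations between libraries. On simulated counts of 18617 genes, edgeR recovered 92.7% of 109 genes changed by 1 on the log2 scale and 97.8% of 91 changed by 2, with 15 false calls. Changes smaller than 1, as in every tested member but Grin2a, were not simulated. Far fewer genes were changed than were called in the data, so these rates do not carry over to the members. Ratios and shares used counts per kilobase and exact two-sided permutation tests over mice (SciPy 1.17.1). Coding sequences from GENCODE M21, for the transcript with the longest coding sequence, were aligned with mafft 7.526.

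The members and lists were chosen with earlier results of these data known. Named are the 7 members, up to 2 passing genes with the lowest adjusted P per list and direction, up to 3 nearest profiles of each GluN2 gene, and marker lists by summed level. Outside this rule, Dlg4, Rbfox3, Slc1a2, overlapping genes and some genes that did not pass, such as Gria4, Dlg1, Aldoc and Grm6, are also named. Alternatives were DESeq2 1.42.0, limma-voom (limma 3.58.1), RLE factors, library totals, 2 filters (1 count in all, mean of 10 counts), thinned and halved counts, a replicate block, marker scalings, glmTreat, other lengths and leaving out each mouse. Of the listed genes, Neto1, Apba1, Ppp1ca, Capn1, Gldc, Slc1a1, Csf1r, Mbp and Tcf7l2 were not analysed here. Replicates are separate mice. Inside the BCAS tables the mice are numbered 2 to 4, here 1 to 3 as in the labels. Some genes and sequences that these rules name are not reported here.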

Additional observations from a re-analysis of the deposited data

How the results depend on the processing

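With DESeq2, limma-voom, RLE factors, both filters, thinned or halved counts, library totals or the replicate block, Grin1, Grin2a and Grin2b stayed lower and Grin2c stayed higher. Grin2d (log2 fold change) missed the threshold with library totals (−0.25), with no filter beyond 1 count (−0.33) and with the replicate block (−0.32, adjusted P = 0.117), and Grin3a passed with no such filter (−0.31). Fewer or more tested genes change the adjustment under a filter, and the cause was otherwise not tested. Library totals turned the split of all genes from 2463 lower and 3356 higher to 1788 lower and 3859 higher. With the replicate block, 1750 genes were lower and 2782 higher, but same-numbered sham and BCAS libraries had residual correlations of 0.036, −0.31 and −0.16, so the numbers do not pair the mice.

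Scaling to pan-neuronal markers left 1 member lower, with Grin1 at −0.053, Grin2b at −0.21, Grin2d at 0.26 and Grin3a at 0.26. Scaling to interneuron markers left 1 member lower, with Grin1 at −0.037, Grin2b at −0.19, Grin2d at 0.28 and Grin3a at 0.27. Scaling to CA1 pyramidal markers gave 0 lower (edgeR, also 0 at an unadjusted P under 0.05) and 3 higher, with Grin1 at 0.24, Grin2a at −0.31, Grin2b at 0.082, Grin2d at 0.54 and Grin3a at 0.55. Scaling to astrocyte markers gave 0 higher (also 0 at an unadjusted P), with Grin2c at −0.66 and Grin3a at −1.32. These shifts follow from the construction of the scaling. The fold threshold kept 1 member lower and 0 higher, and glmTreat kept 0 in either direction, with 1 lower at an unadjusted P.

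Leaving out each mouse gave 3 to 4 members lower and 0 to 1 higher, and 1260 (without sham mouse 3) to 3092 (without BCAS mouse 2) genes lower in all. Log2 fold changes were 0.28 to 0.42 for Grin2c, −0.40 to −0.29 for Grin2d and −0.45 to −0.23 for Grin3a. Counts not divided by length turned the summed GluN2 to Grin1 ratio to −0.14 and moved the shares to −9.36 points for Grin2a, −0.37 for Grin2b and 8.80 for Grin2c, and the other 83 of 87 values of ratios and shares moved by less than the spread between mice.

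Of 300 list counts without marker scalings or glmTreat, 270 stayed within 1.5 times, against 17 of 100 with them, which were added after seeing the data. In the order scaffolds, trafficking, kinases, calcium effectors, D-serine and glycine, uptake and synthesis, transcription factors, AMPA, kainate and delta, and metabotropic receptors, scaling to pan-neuronal markers gave 0, 0, 2, 1, 0, 0, 1, 1, 0 and 0 lower and 3, 7, 8, 4, 9, 4, 9, 1, 4 and 1 higher. Interneuron markers gave 0, 0, 1, 1, 0, 0, 1, 1, 0 and 0 lower and 1, 7, 8, 2, 9, 4, 9, 1, 4 and 2 higher. CA1 pyramidal markers gave 0, 0, 0, 0, 0, 0, 1, 0, 0 and 0 lower and 7, 11, 14, 8, 11, 7, 10, 1, 5 and 5 higher. Astrocyte markers gave 16, 14, 22, 16, 11, 10, 10, 4, 7 and 7 lower and 0 higher. Of all tested genes, 58.6%, 60.2% and 78.9% were higher under the first 3 of these scalings and 73.7% lower under the last. By contrast, glmTreat gave 0 in every list, with 1 lower transcription factor at an unadjusted P. Without each mouse in turn, lower counts were 7 to 14 for scaffolds (7 without any 1 sham mouse), 5 to 11 for calcium effectors, 0 to 1 for D-serine and glycine, 0 to 4 for glutamate uptake and synthesis and 1 to 2 for kainate and delta receptors. Higher counts were 0 to 1 for kinases, 1 to 4 for glutamate uptake and 1 to 4 for transcription factors. Library totals gave 1 higher trafficking gene, 0 lower D-serine and glycine genes and 1 lower kainate or delta gene. DESeq2 and no filter beyond 1 count each gave 1 higher kinase. Thinned counts and the replicate block gave 0 lower D-serine and glycine genes, and the block gave 2 higher uptake genes. Of the members, only Grin3b, at 3 to 19 counts, was kept from testing by the filter on low counts. Of the other listed genes, Dao, Grm6 and Gabra6 did not pass it either.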
